A study of Mus musculus with 4 samples.

Results

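Germline identity and transposon control genes were examined as a set of 10 named genes among the 32799 gene symbols of a mouse RNA-seq count table: Ddx4, Dazl, Dppa3, Ifitm3, Cd9, Prdm1, Tex19.1, Piwil2, Mael and Tdrd1. They were taken by name, each as the sum of its RefSeq transcript rows. The libraries came from C57BL/6 cells labelled as female germline stem cells, kept for more than 20 passages. They formed 2 control libraries (labelled control, with no agent named) and 2 libraries treated with spermidine, a polyamine, with 4 h given as the time in the series' design. The sources used here give no dose, donor age or genetic modification. Nor do the labels name separate cultures for the replicates, so a p-value covers the spread of these 4 libraries alone, and that spread may be technical. The series' title puts the question of autophagy in germline stem cells, and the comparison made here asks how germ cell genes differed between treated and control libraries.

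Germ cells carry a set of RNA-binding proteins and chromatin factors that set them apart from somatic cells. Ddx4 (Vasa) is an RNA helicase and Dazl an RNA-binding protein of germ cells, Prdm1 (Blimp1) a transcriptional repressor that specifies primordial germ cells, Dppa3 (Stella) a chromatin factor of primordial germ cells and oocytes, and Ifitm3 (Fragilis) a membrane protein of early germ cells that is also induced by interferon. Cd9 is a tetraspanin used as a surface marker of germline stem cells and needed on the egg for fusion with sperm. Retrotransposons are held down in germ cells by small piRNAs bound to PIWI proteins such as Piwil2, helped by the Tudor domain protein Tdrd1 and by Mael in cytoplasmic granules called nuage, and Tex19.1 restrains retrotransposons in germ cells and placenta. Transposon RNA itself was not analysed here.

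A gene was visible in this table only as far as its transcript rows had sequence of their own. The 49975 of 106519 rows with no base unshared with another row took no more than 0.0014% of counts in each library, so reads on shared sequence were left out of the table. Tex19.1, Mael, Dppa3, Ifitm3 and Cd9 had 1 row each and were counted on 1740, 1546, 818, 648 and 982 unshared bases, of which 55.0% (Dppa3) to 84.2% (Mael) were coding sequence in GENCODE M21. Ddx4, Dazl, Piwil2 and Tdrd1 had 7, 3, 2 and 11 rows that overlap nearly completely. They kept 434, 432, 359 and 588 unshared bases, none of them coding. Prdm1 had 3311 unshared bases over 6 rows, but only 166 were coding, and 2789 lay outside the exons that GENCODE M21 gives the gene, mostly in a stretch at chr10:44448017-44450054 that belongs to 1 predicted model. The 5 members with 1 row could therefore be measured on their coding exons, and the other 5 could not.

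**Figure D1:**
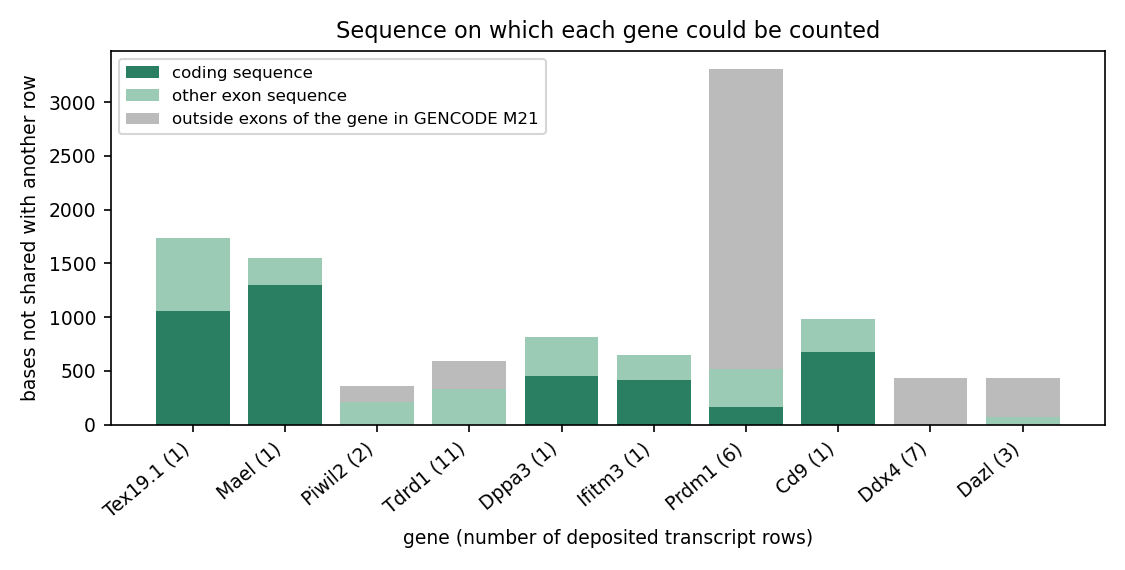
Bases that each gene shares with no other deposited row (vertical axis), split by GENCODE M21 annotation, with the number of rows in brackets. Tex19.1, Mael, Dppa3, Ifitm3 and Cd9 were counted on exons, 55.0% to 84.2% of them coding, while Ddx4, Dazl, Piwil2 and Tdrd1 had no coding base of their own.

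Library totals were 7206176 and 7128901 counts for control against 787600 and 1718944 for spermidine, so 1 count was worth 0.139 and 0.140 against 1.27 and 0.582 on the counts-per-million scale (CPM). The ribosomal row AY036118 took 29.6% and 30.7% of spermidine counts and 1.64% to 1.68% of control counts. Olfactory and vomeronasal receptor genes, known from sensory neurons, had 0.0634 and 0.153 counts per kb of unshared sequence in the controls, 3.18 in spermidine replicate 1 and 0.176 in replicate 2. These rates serve below as the background of each library. Each is a mean over 1463 receptor genes, of which 868 had counts in spermidine replicate 1. How far the background varies from gene to gene was not estimated. Comparisons with it below therefore allow for counting error alone.

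The label was checked against markers of germ cells and of other cell types. Of 9 defining germ cell genes, 4 had no count in either control, and Tex19.1 (mean 260 CPM) was the most abundant. Those 4, Ddx4, Prdm1, Piwil2 and Tdrd1, are among the genes that could not be measured on their coding exons. On a longer list of 35 germ cell identity and germline stem cell genes, 19 had no control count. Among these were Prdm14 and Tfap2c, with 2593 and 1165 unshared bases. Nanos1 was the most abundant of that list in the controls (mean 41.8 CPM). Xist, which silences an X chromosome in cells with a pair of them, was counted 5 and 2 times in the deeper control libraries against 114 and 588 times in spermidine, so Xist did not bear out the female label in the controls. Leukocyte and haematopoietic markers summed to 4780 and 3950 CPM in the controls and to 980 and 275 CPM in the spermidine libraries. They were led by Lcp2, an adaptor of immune receptor signalling. Of the 30 genes on that list, 9 had no count in either control, among them Spi1 and Lcp1 on 407 and 591 unshared bases. Of 14 tested genes of that list, 8 were lower in spermidine and 1 higher. Over all tested genes, 3.99% were lower and 24.8% higher. Oocyte markers summed to 1.39 and 2.81 CPM in the controls and to 234 and 2120 CPM in spermidine, led by Padi6, an enzyme-like protein of the egg cytoplasm. Granulosa and theca markers summed to 155 and 130 CPM against 2600 and 5780, led in spermidine by the inhibin subunit gene Inhbb. In the controls that sum was mostly Cyp11a1 (mean 119 CPM), which was not called (log2 fold change 0.55 ± 0.60, edgeR adjusted p = 0.526). Foxl2 had 5 and 7 control counts and Wt1 2 and 1, and 10 of the 11 tested genes were higher. Epithelium, endothelium and pluripotent cell markers ran the same way, from 0.555 to 23.3 CPM in the controls and from 122 to 376 CPM in spermidine. The pluripotent sum was led in both groups by Klf4, which was not called (log2 fold change 2.70 ± 0.97, edgeR adjusted p = 0.0698). Of 10 pluripotent cell genes 3 were tested and 2 were higher, Pou5f1 and Dppa5a. Utf1 and Lin28a had counts in spermidine replicate 1 alone, 24 and 16 beside backgrounds of 3.69 and 5.16. Of 12 tested fibroblast and stroma markers, 8 were higher and 1 lower (median log2 fold change 6.40), among them the collagen gene Col3a1 with 135 and 129 control counts against 586 and 6477. Their summed CPM, 6080 and 6540 against 4290 and 10900, was in the controls mostly that of Vim (mean 6180 CPM), an intermediate filament gene that leukocytes also express and the one called lower. The control libraries thus held much RNA of some leukocyte and haematopoietic markers and none of others. Of the defining germ cell genes measured on coding exons, they held Tex19.1 and Ifitm3 and little of Dppa3 and Mael. The spermidine libraries held oocyte, granulosa and stroma marker RNA, more of it in replicate 2. In such bulk samples fewer cells of a type and less RNA per cell cannot be told apart. The labels give all 4 libraries the same cell type, strain and passages, but with these markers and Xist it cannot be told whether both groups came from the same source of cells. A difference between groups given here is therefore one between these libraries, and an effect of spermidine cannot be told apart from a difference in the cells. The part of these marker differences in the values of the 10 genes was not tested.

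**Figure D2:**
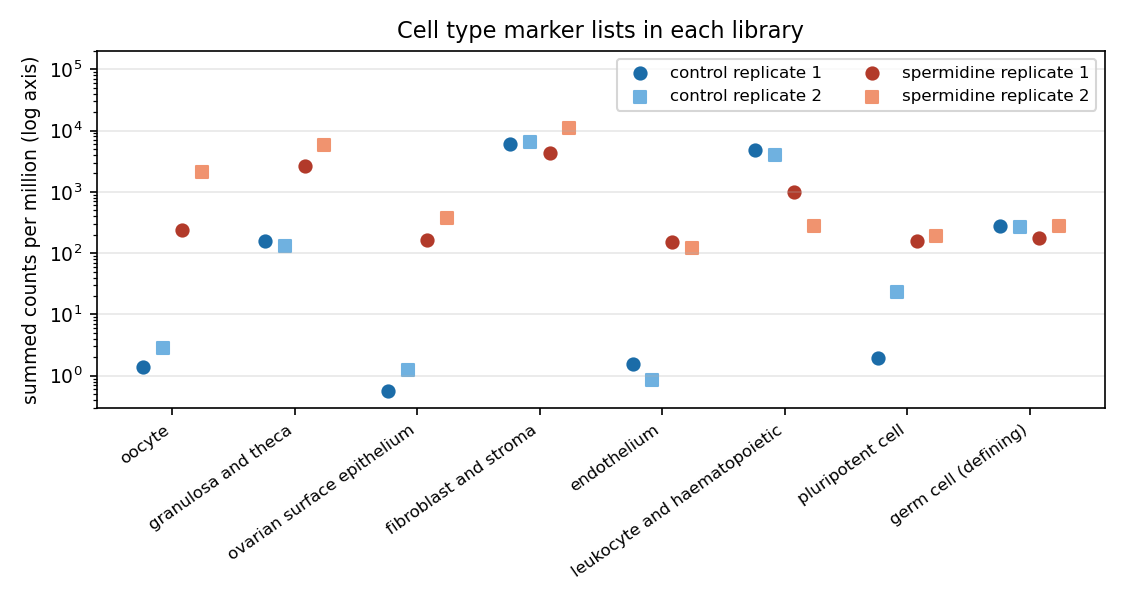
Summed CPM (log axis) of 8 marker lists in each library, controls in blue and spermidine in red. Oocyte markers lie at 1.39 and 2.81 in the controls and at 234 and 2120 in spermidine, and leukocyte markers at 4780 and 3950 against 980 and 275.

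The sequence upstream of the start is shown for the member that fell and for a pair that rose, because promoters of germline genes are known for dense CpG and for motifs through which somatic cells repress them. The searched motifs were CACGTG, the E-box bound by MAX and MGA, and GCGGGA or its reverse complement TCCCGC, the letters bound by E2F6. Both were searched on both strands in the 250 bases before the start, and they do not overlap each other in these windows. The sequences are from RefSeq on GRCm38.p6, read 5′ to 3′ on the gene's strand, with motif letters in capitals. They cover chr11:121145893-121146142 (plus strand) for Tex19.1, chr1:166238745-166238994 (minus strand) for Mael and chr7:141010745-141010994 (minus strand) for Ifitm3.
Tex19.1: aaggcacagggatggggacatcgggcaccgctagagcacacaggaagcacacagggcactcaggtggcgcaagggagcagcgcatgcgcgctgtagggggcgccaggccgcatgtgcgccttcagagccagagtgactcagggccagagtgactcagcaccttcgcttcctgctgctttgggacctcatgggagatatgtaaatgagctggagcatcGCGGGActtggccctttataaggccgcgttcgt
Mael: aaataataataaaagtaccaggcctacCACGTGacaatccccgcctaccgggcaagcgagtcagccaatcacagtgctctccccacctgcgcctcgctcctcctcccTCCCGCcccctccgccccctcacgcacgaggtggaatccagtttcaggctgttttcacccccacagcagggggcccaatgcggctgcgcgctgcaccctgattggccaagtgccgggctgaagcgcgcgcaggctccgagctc
Ifitm3: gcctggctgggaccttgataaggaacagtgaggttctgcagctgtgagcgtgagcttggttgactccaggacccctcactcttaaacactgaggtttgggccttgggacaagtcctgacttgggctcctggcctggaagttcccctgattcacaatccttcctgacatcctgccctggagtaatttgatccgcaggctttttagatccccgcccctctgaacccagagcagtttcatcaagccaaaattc

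Of the 10 members, 8 matched a window in the RefSeq promoter table. The Mael window held both motifs and the Tex19.1 window held GCGGGA, whereas Ifitm3 held neither. CACGTG was present in 6.02% of all 32851 windows, the E2F6 letters in 16.9% and both in 1.45%. Observed over expected CpG, the count of CG pairs relative to what the C and G content gives, was 0.643 for Tex19.1, 0.750 for Mael and 0.168 for Ifitm3, against a median of 0.373 over all windows. Cd9 had 0.761, Dazl 0.710 and Prdm1 0.710, all without either motif, and the Ddx4 window, which lies wholly in exon sequence of the annotation, had 1.0 with both motifs. Tdrd1 had CACGTG in both windows of its upstream starts (0.531 and 0.862) and not in the third (0.250). Those upstream windows overlap, so they may share the same site, and they hold 38 and 94 bases of annotated exon. Tex19.1, which was lower in spermidine, and Mael, which was higher, thus both lay above the median, and Ifitm3 lay at the lower quartile of all windows (0.167).

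Just after its start Ifitm3 carries the letters of the interferon response element, GAAA and GAAA with 2 bases of any kind between them, shown because the gene is measured here beside other interferon-stimulated genes. Both matches, in capitals, lie within 27 bases of the first exon at chr7:141010716-141010742 (minus strand, GRCm38.p6).
Ifitm3 element: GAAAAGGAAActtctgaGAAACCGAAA

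In the whole windows of 300 bases, that motif on either strand was found in 3.44% of all windows, in those of 14 of 22 interferon-stimulated genes with a window, and for no other member. A match is a description of the letters and not a measured binding site.

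Of the 10 members, 5 had enough counts to be tested: Tex19.1 was lower in spermidine, and Dppa3, Ifitm3, Cd9 and Mael were higher. Over all 7836 tested genes, 28.8% were called by edgeR's quasi-likelihood test at a Benjamini-Hochberg adjusted p under 0.05, 24.8% higher and 3.99% lower. The 313 lower calls became 1208 without spermidine replicate 2, 32 without spermidine replicate 1 and 68 without control replicate 2, so that share rests on single libraries. The median log2 fold change over the 7836 genes was 0.23. Dppa3, Cd9 and Mael reached the low-count limit of 2.26 CPM in 2 libraries through the spermidine group (in the controls only Cd9 did, in 1 library), so passing favoured a rise and the number called gives no support to any direction. Tex19.1 and Ifitm3 reached it in all 4 libraries. With no low-count filter none of the 5 was called (edgeR adjusted p = 0.263 to 0.303), nor was any other gene, and all 5 had an unadjusted p under 0.05.

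**Figure D3:**
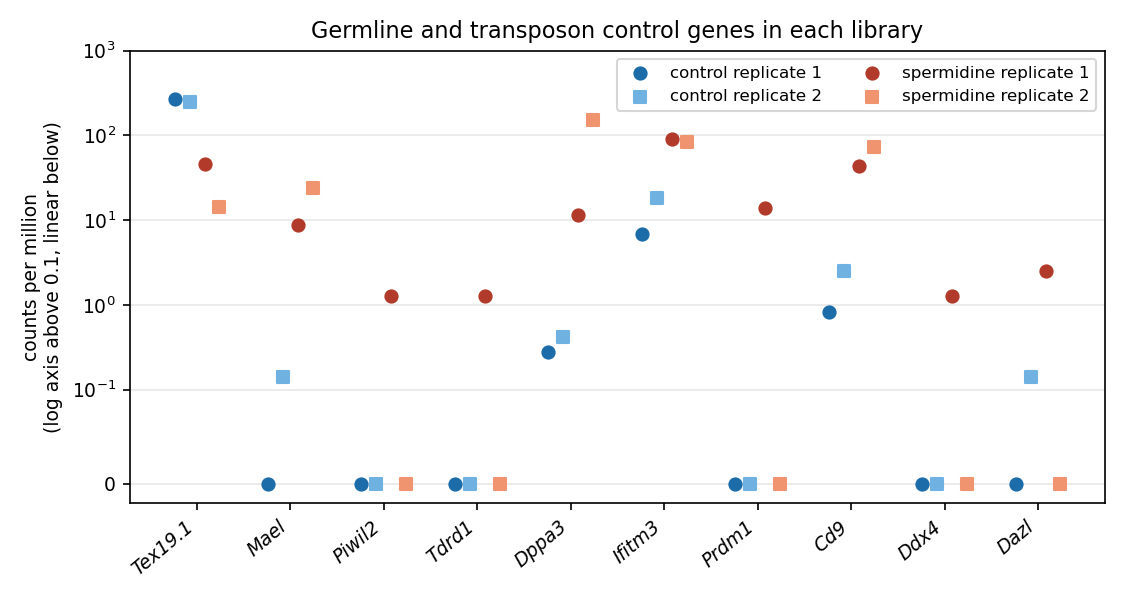
CPM of the 10 genes in each library (log axis above 0.1, linear below, with 0 at the bottom), controls in blue and spermidine in red. Tex19.1 is at 271 and 248 in the controls and at 45.7 and 14.5 in spermidine, while the other tested genes are higher in both spermidine libraries, and 5 genes have counts in few libraries.

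Tex19.1, which lies on the plus strand of chromosome 11 from 121146143 to 121148314 (GRCm38) in 3 exons, was the most abundant member in the controls. It had 1955 and 1770 control counts, 271 and 248 CPM, and 36 and 25 spermidine counts, 45.7 and 14.5 CPM. The control libraries were alike and the groups did not overlap, as for 66.2% of all tested genes, but the spermidine libraries differed from each other 3.14-fold. The fitted log2 fold change was -3.25 ± 0.63 SE (edgeR adjusted p = 0.00749). Its 36 counts in spermidine replicate 1 stand above the 5.54 that the receptor background would give on 1740 bases, and its 25 in replicate 2 above 0.307. Without spermidine replicate 2 the log2 fold change was -2.65 and without replicate 1 it was -3.92. The call was lost without control replicate 1 (adjusted p = 0.0792), where no gene of the table was called and 1926 had an unadjusted p under 0.05.

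The tested genes with the profile nearest to that of Tex19.1, by the root mean square difference of centred log2 CPM over the 4 libraries, were Timm8a1 (0.07), a chaperone gene of the mitochondrial intermembrane space, Fkbp11 (0.11) and Rab38 (0.14), a small GTPase of melanosomes and related organelles. Rab38 had 4644 and 5377 control counts against 105 and 76. The paralogue Tex19.2, 27.5 kb away, had 2 and 2 control counts and 3 and 0 spermidine counts on 2046 unshared bases, too few for a test. Of 8 named genes within 100 kb of Tex19.1, Narf (1.66 ± 0.66, edgeR adjusted p = 0.0925) and Ogfod3 (-0.11 ± 0.66, 0.924) were tested and neither was called.

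Mael (chr1:166201385-166238744, minus strand, 12 exons) had 0 and 1 control counts and 7 and 41 spermidine counts. Its CPM were 0 and 0.140 against 8.89 and 23.9. The groups did not overlap, but the 95% exact Poisson interval of the 7 counts in spermidine replicate 1, 2.81 to 14.4, includes the 4.92 that the receptor background would give on its 1546 bases. The 41 counts in replicate 2 (29.4 to 55.6) lie above the 0.273 of that library. The ratio of pooled counts, scaled by effective library size, was 291 with a 95% exact counting interval of 49.8 to 11700 (edgeR adjusted p = 0.00747). By counting error alone, Mael was above the mean background in spermidine replicate 2 and not distinguishable from it in replicate 1. The log2 fold change was 7.58 ± 1.42 with all libraries, 6.42 ± 1.36 without spermidine replicate 2 and 8.89 ± 2.75 without control replicate 2, and the call was lost without control replicate 1 (edgeR adjusted p = 0.0792).

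Dppa3 (chr6:122626424-122630271, plus strand, 4 exons) had 2 and 3 control counts and 9 and 263 spermidine counts. Its CPM were 0.278 and 0.421 in the controls and 11.4 and 153 in spermidine. Replicate 2 was 13.4-fold above replicate 1, the widest gap between replicates of any tested member in this group, and it is the library with the higher oocyte marker sum. The groups did not overlap, and the log2 fold change was 8.02 ± 1.38 SE (edgeR adjusted p = 0.00564). It was 4.80 ± 1.08 without spermidine replicate 2 (adjusted p = 0.00221) and 8.92 ± 0.40 without replicate 1 (0.0314), and the call was lost without control replicate 1 (0.0750). The 9 counts of replicate 1 (exact interval 4.12 to 17.1) lie above the mean background of 2.61 by counting error alone.

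The nearest profile to that of Dppa3 was that of the oocyte gene Oosp1, with 0 and 1 control counts and 5 and 136 spermidine counts (root mean square difference 0.15), followed by Hpgd (0.17), which breaks down prostaglandins, and C1qtnf2 (0.23). Dppa3 sits in a cluster with other genes of early embryonic cells. Within 100 kb, Gdf3, a TGF-beta family ligand, had 1 count in all on 1480 unshared bases, and Nanog had 28 unshared bases and 0 counts. Mfap5, which encodes a microfibril protein, had 0 and 1 control counts against 18 and 38 and was called higher (edgeR adjusted p = 0.00567), whereas the glucose transporter gene Slc2a3 had 115 and 90 against 0 and 5 (-2.77 ± 1.17, 0.105).

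Ifitm3 (chr7:141009590-141010744, minus strand, 2 exons) had 49 and 132 control counts and 72 and 146 spermidine counts. In CPM this was 6.80 and 18.5 against 91.4 and 84.9. Here the spermidine libraries were alike, 1.08-fold apart, and the controls differed 2.72-fold, with no overlap between groups. The log2 fold change was 2.83 ± 0.68 SE (edgeR adjusted p = 0.0133), the smallest rise of the 4. The call was lost without control replicate 1 (adjusted p = 0.243), control replicate 2 (0.0594), where the log2 fold change was 3.71 ± 1.41, or spermidine replicate 1 (0.1), and held without spermidine replicate 2 (2.73 ± 0.61, 0.00201).

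Other Ifitm genes lie beside Ifitm3 on chromosome 7. Ifitm2, 53.6 kb away and counted on 627 unshared bases, had 2462 and 2221 control counts and 121 and 802 spermidine counts, more than Ifitm3 in each library, and its log2 fold change was 0.07 ± 0.67 (edgeR adjusted p = 0.949). Ifitm6 had 5 and 1 against 7 and 6 counts and was called higher (3.65 ± 1.01, 0.0219). Ifitm1, another marker of early germ cells, had 9 and 9 control counts and 0 and 1 spermidine counts and was not tested. These paralogues are similar in sequence, so reads may be split between them in a way that the table does not show. Of 12 tested interferon-stimulated genes from a separate list of 30, Ifit1, which binds foreign RNA, was higher with 184 and 224 control counts against 1236 and 1099 (5.21 ± 0.65, edgeR adjusted p = 0.00314). Rsad2, the antiviral enzyme viperin, was called with 13 and 22 against 30 and 12 counts (2.96 ± 0.96, 0.0476), the 30 counts in replicate 1 standing beside a background of 12.1. The other 10 were not called, among them Bst2 (0.77 ± 0.72, 0.461) and Ifi35 (-1.51 ± 0.60, 0.0938). Over the 12 the median was 1.46, beside 0.23 for the whole table, and the called share 16.7%, beside 28.8%. The nearest profiles to that of Ifitm3 were those of Cep120 (0.06), Rhou (0.07) and Arhgap22 (0.11). None of these 3 is in the interferon list, and Rhou had 26 and 76 control counts against 42 and 94.

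Cd9 (chr6:125460266-125494755, minus strand, 8 exons) had 6 and 18 control counts and 34 and 125 spermidine counts. Its CPM were 0.833 and 2.52 in the controls and 43.2 and 72.7 in spermidine. The groups did not overlap, with replicates 3.03-fold apart in the controls and 1.68-fold apart in spermidine. The log2 fold change was 5.21 ± 0.86 SE (edgeR adjusted p = 0.00591). Without spermidine replicate 1 it was 5.66 ± 0.70 with the call lost (adjusted p = 0.0617), as it was without control replicate 1 (4.67 ± 1.54, 0.0750). It was 6.15 ± 1.79 without control replicate 2 and 4.54 ± 0.77 without spermidine replicate 2. The 34 counts in replicate 1 exceed a background of 3.13. Cpe, which trims peptide hormones, had the nearest profile (0.10), with 99 and 223 control counts against 405 and 1585. Erbb2, a receptor tyrosine kinase, came next (0.15), then Zfp109 (0.16).

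Among 10 tested tetraspanin genes of 24 listed, 2 were higher and 1 lower (median 0.15, or 0.23 over all tested genes). The called share was 30.0%, near the 28.8% over all tested genes. Besides Cd9, Tspan15 was higher (ratio of pooled counts 242, 41.1 to 9810 by exact 95% counting interval), with 1 and 0 against 13 and 27 counts. Its 13 counts in replicate 1 stand beside a background of 8.67. Cd53, a tetraspanin of leukocytes, fell by 2.76 ± 0.75 on the log2 scale (edgeR adjusted p = 0.0228), from 2586 and 1987 counts to 74 and 24. Cd81, another tetraspanin gene, had 1172 and 831 against 176 and 1082 counts and a log2 fold change of 1.75 ± 0.68 (0.0892).

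**Figure D4:**
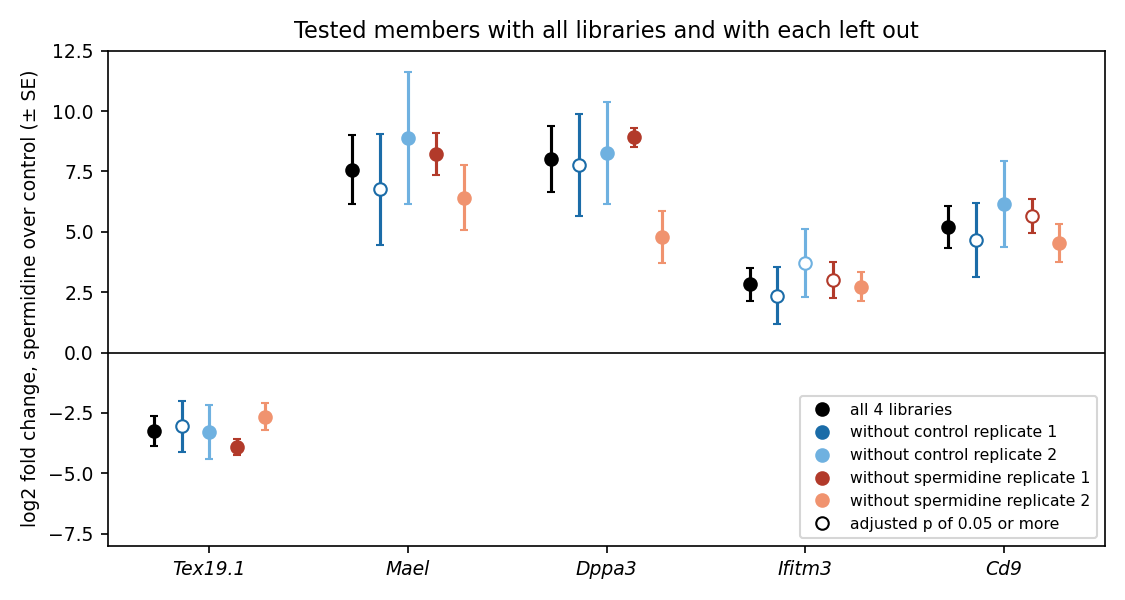
Log2 fold change of spermidine over control (± SE from edgeR's quasi-likelihood fit) for the 5 tested genes with all 4 libraries (black) and with each library left out, with open circles where the adjusted p was 0.05 or more. Tex19.1 stays between -2.65 and -3.92, Dppa3 ranges from 4.80 to 8.92, and no gene is called without control replicate 1.

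The remaining 5 members had too few counts for a test, nearly all of them in spermidine replicate 1. Prdm1 (chr10:44437174-44528560, minus strand) had 0 and 0 control counts and 11 and 0 spermidine counts. The receptor background would give 10.5 on its 3311 unshared bases in replicate 1, and the exact interval of the 11 counts was 5.49 to 19.7. Of these, 6 lay in the row of the predicted model that holds the stretch given above.

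Ddx4 (chromosome 13) had 1 count in all 4 libraries, in spermidine replicate 1, where the background would give 1.38 on 434 bases. Dazl (chromosome 17) had 0 and 1 control counts and 2 and 0 spermidine counts, against a background of 1.38 in replicate 1 on 432 bases. Piwil2 (chromosome 14) and Tdrd1 (chromosome 19) had 1 count each, also in spermidine replicate 1, beside backgrounds of 1.14 and 1.87. None of the 5 genes stood above the receptor background beyond counting error in a spermidine library, and none had over 1 count in a control. With 359 to 588 unshared and noncoding bases, the counts of Ddx4, Dazl, Piwil2 and Tdrd1 set no useful limit on the expression of these genes. In the controls 3 counts would be 0.959 and 0.970 CPM per kb of unshared sequence for Ddx4, and 8.78 and 4.02 in spermidine.

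Levels can be set side by side only per length. In CPM per kb of unshared sequence the controls ran from Tex19.1 (156 and 143) through Ifitm3 (10.5 and 28.6), Cd9 (0.848 and 2.57) and Dppa3 (0.339 and 0.514) to Mael (0 and 0.0907). No pair of neighbours in that order overlapped, although 5 or fewer counts stood behind Dppa3 and Mael. In spermidine, Ifitm3 had 141 and 131, Dppa3 14 and 187, Cd9 44.0 and 74.1, Tex19.1 26.3 and 8.36, and Mael 5.75 and 15.4. There Ifitm3 stood above Cd9 and Cd9 above Tex19.1 in both libraries, and Tex19.1 and Mael overlapped. The range of Dppa3 took in Cd9 and Ifitm3 and also overlapped those of Tex19.1 and Mael.

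Around these members, the piRNA pathway was almost out of reach: 2 of 29 listed piRNA and nuage genes could be tested, and 13 had no count in any library. Spocd1, which directs DNA methylation to transposons bound by piRNA complexes, was higher (ratio of pooled counts 297, 50.9 to 12000 by exact 95% counting interval), from 0 and 1 control counts to 32 and 17, and Mael was the other. The 32 counts of Spocd1 in replicate 1 stand above a background of 10.2. Asz1, a nuage protein gene, had 18 counts in spermidine replicate 1, beside a background of 1.72, and 0 elsewhere. Mybl1, the transcription factor of pachytene piRNA genes, had 12 and 5 control counts and 27 and 1 in spermidine.

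The list drawn up for chromatin silencing of transposons, not all of whose genes are chromatin factors, was measured better. Of its 35 genes 11 were tested, 2 higher and 1 lower, with a median of 0.26 against 0.23 for all tested genes. The called share was 27.3%, near the 28.8% over all tested genes. Tex19.1 was the gene that was lower. Suv39h2, a histone H3 lysine methyltransferase gene, was higher with 2 and 3 control counts against 8 and 8 (4.19 ± 0.91, edgeR adjusted p = 0.00778), and Zcchc3 with 1 and 34 against 23 and 127 (4.55 ± 1.09, 0.0137). Morc1, an ATPase gene for transposon silencing in male germ cells, had 741 and 542 against 54 and 33 counts (-1.17 ± 0.64, 0.209). It is, like Tex19.1, a germ cell gene with many control counts, and it was not called. Trim28, the corepressor that zinc finger proteins bring to transposons, had the most counts of the list, 11363 and 8261 against 266 and 1753 (-0.87 ± 0.71, 0.395).

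Repressors that keep germline genes silent in somatic cells, the PRC1.6 complex and its partners, had 9 of 16 genes tested. Of these 1 was higher and 0 lower (11.1% called, or 28.8% over all tested genes), with a median of -0.54. Mga, which binds the E-box named above, was called with 13 and 11 against 32 and 7 counts (3.43 ± 1.08, edgeR adjusted p = 0.0432), but the background in replicate 1 on its 6511 bases is 20.7 counts. E2f6 had 19 and 17 against 3 and 1 (-0.54 ± 1.02, 0.726), and the histone deacetylase gene Hdac1 2044 and 2449 against 92 and 275 (-1.10 ± 0.54, 0.166).

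Of 35 germ cell identity and germline stem cell genes, 13 were tested, 9 were higher and 0 lower (median 5.21, or 5.01 with low-count genes at their bound). The called share was 69.2%, beside 28.8% over all tested genes. Most of the 9 passed the low-count limit through the spermidine libraries, so the count is a description. Besides Dppa3, Cd9 and Ifitm3, Cdh1, the epithelial cadherin, was higher (ratio of pooled counts 442, 76.9 to 17700 by exact 95% counting interval), from 1 and 0 control counts to 19 and 54. The background in replicate 1 on its 4432 bases is 14.1 counts, so the excess rests on replicate 2. Uchl1, a deubiquitinase of spermatogonial stem cells and of neurons, rose from 15 and 14 counts to 40 and 845 (7.26 ± 1.25, edgeR adjusted p = 0.00652), and Id4, an inhibitor of differentiation, from 7 and 1 to 11 and 43 (5.21 ± 1.07, 0.00763). Dppa2 had 0 control counts and 19 and 11 in spermidine, a ratio of 60.6 with the controls set at a floor of 3 counts. Its 19 counts stand beside a background of 6.18. Sohlh2, a transcription factor of early oocytes, had 0 against 10 and 6, a ratio of 32.3 with the same floor. A background of 7.48 stands beside its 10 counts. Neither of these ratios has an interval or has the background removed. The stem cell genes Nanos1 (-0.16 ± 0.64, 0.876), Etv5 (-1.26 ± 0.91, 0.331) and Thy1 (1.12 ± 0.91, 0.390) were not called, and Dnd1, an RNA-binding protein gene of germ cells, had 27 and 29 against 2 and 37 counts (1.96 ± 0.95, 0.164).

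**Figure D5:**
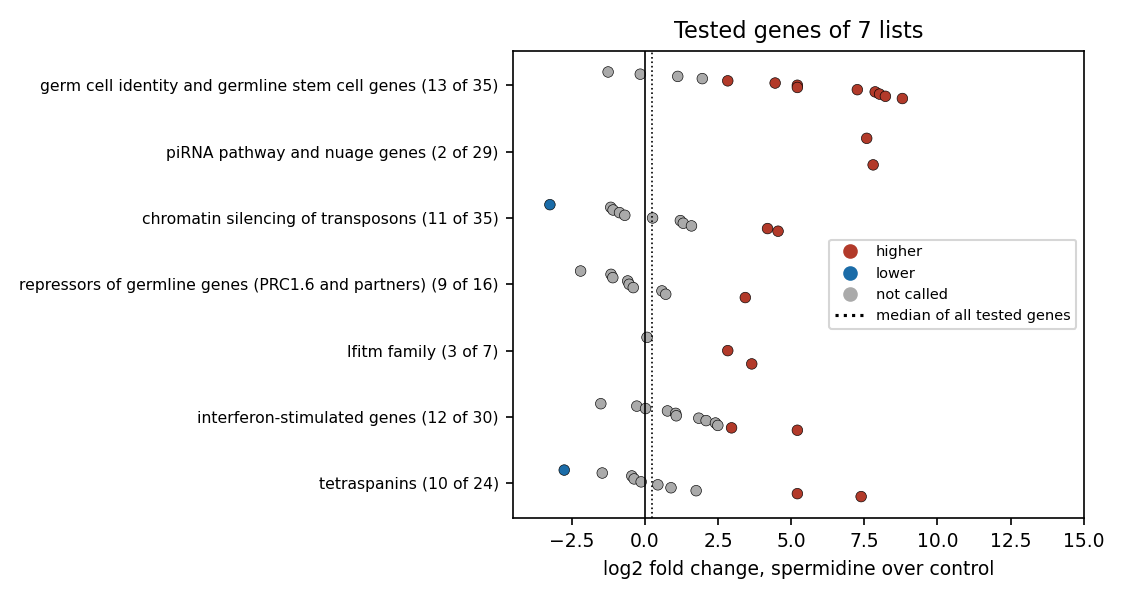
Log2 fold change of spermidine over control for the tested genes of 7 lists (number tested of number listed in brackets), red for genes called higher, blue for lower and grey for not called, with a dotted line at the median of all tested genes, 0.23. In the germ cell list 9 of 13 tested genes are higher, and Tex19.1 is the lowest point of the transposon silencing list.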

How the data were processed

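Counts of RNA-seq libraries from 2 control and 2 spermidine samples were used. The labels' protocols give DNase treatment, mRNA isolation and paired-end sequencing, and name a pair of library kits. HISAT2, DESeq2 and the build mm9 are named, without roles, per the submitters' processing notes. The sources used here do not give the counting program or its strand setting. The deposited values are whole-number counts per RefSeq transcript row, with exon positions and row lengths, per the file headers. Of 106519 rows, 80.8% matched a symbol in a RefSeq table of GRCm38, 89.4% of these within the gene's GRCm38 span, so positions are given as GRCm38. Rows were summed per gene and unshared bases computed from the exon positions without regard to strand.

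Genes kept by filterByExpr (count minimum 10, total minimum 15) were scaled by TMM (factors 0.961 and 0.973 for the controls, 1.30 and 0.824 for spermidine) and tested with edgeR 4.0.16 (glmQLFit, glmQLFTest) in R 4.3.3, with group alone as a term and 2 residual degrees of freedom. The threshold for a call was that the p, adjusted by Benjamini-Hochberg across the whole fit, was under 0.05. DESeq2 1.42.0 and limma 3.58.1 served as alternatives. Log2 CPM used a prior count of 2. Ratios and intervals of 95% cover counting error only. Fitting was tested on simulated data. Replicates of a group differed beyond sampling noise (chi-square over degrees of freedom 21.2 and 17.1). The members, lists and tests were chosen with earlier results of these data known. Beside the 10 members, genes were named from the 3 called genes of smallest p per list and direction, the 3 nearest profiles of Tex19.1, Dppa3, Cd9 and Ifitm3 (Gm and Rik names passed over), and the most abundant marker of a list. Neighbouring genes, the interferon element search and other named genes were chosen after their values were seen. Fits without a library used the gene set of the full fit, and the library left alone in its group was taken to vary as the other group did.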

Additional observations from a re-analysis of the deposited data

How the results depend on the processing

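With all 4 libraries, 2256 genes were called, 5 of them members. Members called numbered 5 in every other scaling, by DESeq2, limma-voom and edgeR's legacy test, with thinned controls and with the receptor background subtracted, and 4 at an adjusted p under 0.01. No fold change of a tested member changed sign in any alternative run. With no low-count filter edgeR called 0 genes (unadjusted p under 0.05: 4255; DESeq2 with the filter: 2194) and 0 members (unadjusted: 5). With at least 1 CPM in every library 275 genes were called, and both members that could be tested, Tex19.1 and Ifitm3, so 2 members. At an adjusted p under 0.01 1282 genes were called. Leaving out a library gave 0 to 3725 calls and 0 to 5 members: 0 and 0 without control replicate 1 (unadjusted p under 0.05: 1926 genes, 4 members), 1513 and 4 without control replicate 2, 484 and 3 without spermidine replicate 1, and 3725 and 5 without spermidine replicate 2. Alternatives chosen after seeing the data called 1065 genes after thinning both controls to the average spermidine depth and 1492 with the receptor background subtracted. Over the whole table the median log2 fold change was 0.23 with TMM, 0.37 with upper-quartile factors and 0.68 with library totals without AY036118, where Tex19.1 had -2.74 and Ifitm3 3.29. The 313 lower calls became 163 with that scaling, 420 with library totals, 354 with upper-quartile factors, 106 with thinned controls and 44 at an adjusted p under 0.01. The replicate block changed no call of a member (1775 genes called, 94 of them lower), and the numbers share no labelled source: the correlation of same-numbered deviations was -0.03. The cause of these shifts was not tested. Dppa3, Mael and Cd9 had 24 or fewer counts each over both controls, which were the deepest libraries, and these few counts limit the precision of their fold changes.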
